A study of Mus musculus with 24 samples.

Results

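The interval from 4 to 8 h of activation was examined in CD8+ T cells of 3 mice labelled WT, by setting their 3 libraries of 8 h against their 3 libraries of 4 h, 6 of the 24 libraries of the series. All 23420 genes of the files were considered, and the 11470 that passed a filter on low counts were tested. The WT mice (mice 4 to 6) were E8i-cre-, Tcf7FL/FL and OTI+, so they carried floxed alleles of Tcf7, no cre and a transgenic T cell receptor. Mice 1 to 3, labelled Tcf7 cKO, differed by being E8i-cre+, a cre driven by an enhancer of the CD8 genes. CD8 microbeads were used to isolate the cells from lymph nodes and spleen. A first aliquot gave the 0 h library, and the remainder was plated on anti-CD3 and anti-CD28 (coating at 1 ug/mL), in medium holding 6 ng/mL of murine IL2, and sampled at 4, 8 and 24 h. Each library came from 1000 sorted cells, and the mouse number ties the times of 1 animal together.

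A naive CD8+ T cell that meets its antigen, mimicked here by antibodies to the receptor complex and to the co-stimulatory receptor CD28, first transcribes immediate early genes and the feedback inhibitors of the receptor's own pathways. Cytokines and chemokines follow, and the cell then grows by making ribosomes, enzymes and mitochondrial proteins before it starts to replicate its DNA and divide. TCF1, the product of Tcf7, is a DNA-binding factor that naive T cells and the self-renewing memory pool depend on, and the chemokine receptor CXCR6 and CD28 are the other molecules that the title of the series names.

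The 6 libraries held 5846265 to 8319352 expected counts each, and the first principal component of the 6 separated 8 h (28.8 to 43.4) from 4 h (−38.3 to −30.5). In the component of all 24 libraries that follows time, the 8 h library of mouse 5 lay at 25.8, farther along than the 8 h libraries of mice 4 and 6 at 13.2 and 14.4. On the second component of the 6, the 8 h library of mouse 4 lay at −30.7, and those of mice 5 and 6 at 21.0 and 2.87. The ribosomal RNA gene Rn45s took 14.2 to 17.2% of the counts at 8 h and 18.4 to 20.6% at 4 h. Summed levels of 4 T cell markers (Cd3d, Cd3e, Cd3g, Cd247) were 749 to 883 TPM at 8 h and 1262 to 1369 TPM at 4 h, and those of Cd8a and Cd8b1 were 401 to 469 TPM and 693 to 779 TPM. Markers of CD4 T cells, B cells, myeloid cells, dendritic cells, NK cells and erythroid cells each summed to 2.65 TPM or less at 8 h and 7.88 TPM or less at 4 h. Lyz2, Cd14, S100a8, S100a9, Klra8, Hba-a1 and Hba-a2 were at 0 in all 6. Tcf7 was not lower in the mice labelled cKO at the times compared, with 73.6 to 127 TPM at 8 h and 251 to 271 TPM at 4 h, against 52.6 to 87.4 TPM at 8 h and 180 to 205 TPM at 4 h in WT. It read 681 to 719 TPM in cKO and 499 to 567 TPM in WT at 0 h, and 35.7 to 38.3 TPM in cKO and 62.6 to 77.0 TPM in WT at 24 h. The level is read over the whole gene, deleted and retained exons together, so it does not check the deletion, and the mice are called WT and cKO as they are labelled.

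Between 4 and 8 h, 4773 of the 11470 tested genes changed in WT (41.6%; edgeR's quasi-likelihood test, Benjamini-Hochberg adjusted p under 0.05), 2509 higher (21.9%) and 2264 lower (19.7%) at 8 h. A change of at least 2-fold was called for 435 higher (3.79%) and 629 lower (5.48%) genes, and the median of all tested genes was 0.01 on the log2 scale. In 5339 genes (46.5%) the 8 h and 4 h libraries did not overlap. These are relative RNA levels, and in a bulk sample fewer cells with an RNA and less of it in each cell cannot be told apart. Among the genes with the largest rises were the inhibitory receptor gene Lag3, the transcription factor gene Zbtb32 and the surface glycoprotein gene Cd200. Among those with the largest falls were Rasgrp2, the polyamine oxidase gene Smox and Mxd1, whose protein competes with MYC for its partner MAX. Across gene groups, those for ribosome production, protein folding and breakdown, mitochondria and nucleotide synthesis were higher at 8 h, and immediate early, NF-kappaB, naive cell and T cell receptor signalling genes were lower.

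The 14 increases and 14 decreases named first, and the genes named for the classes, had to move the same way in 3 mice without overlap between the scaled counts of 8 h and 4 h libraries, so their separation was a condition of naming and supports nothing. Lag3 (chr6:124904361-124911705, minus strand, GRCm38), whose product binds MHC class II and restrains T cells, had the largest increase among genes above the level limit for naming. It read 66.8, 57.7 and 55.7 TPM in the 8 h libraries of mice 4, 5 and 6, against 1.08, 1.37 and 0.42 TPM in their 4 h libraries. The 4 h libraries held 1.37 TPM or less, and the fitted log2 fold change was 5.99 ± 0.25 (SE; edgeR adjusted p = 8.33e-17), from 22 counts over the 4 h libraries. Zbtb32 (chr7:30589681-30598909, minus strand), a repressor of the BTB zinc finger family, had 45.9, 56.4 and 50.2 TPM at 8 h, against 2.98, 5.99 and 2.98 TPM at 4 h. The 4 h library of mouse 5 stood above the others of 4 h (log2 fold change 3.75 ± 0.28, adjusted p = 1.39e-09). Cd200 (chr16:45382135-45409053, minus strand), which encodes a ligand of an inhibitory receptor on myeloid cells, was the most abundant of the leading increases. It reached 272, 268 and 247 TPM at 8 h, against 39.8, 31.5 and 28.9 TPM at 4 h, a log2 fold change of 3.02 ± 0.16 (adjusted p = 2.32e-12). The 3 mice lay close together at both times.

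Several of the other leading increases encode enzymes or carriers of lipids and small metabolites. Acsl6, a long-chain acyl-CoA synthetase, had 10.9, 12.7 and 11.1 TPM at 8 h, against 0.46, 0.75 and 0.21 TPM at 4 h, and was at 0 TPM in every 0 h library. Crabp2, a carrier of retinoic acid, averaged 46.2 ± 5.0 TPM at 8 h and 5.72 ± 2.95 TPM at 4 h (SD, n = 3 each). Bcat1, the cytosolic transaminase of branched-chain amino acids, averaged 52.4 ± 2.3 TPM and 10.3 ± 0.7 TPM (SD, n = 3 each), with 50.9, 51.2 and 55.0 TPM at 8 h, against 11.0, 10.4 and 9.63 TPM at 4 h. Ptger2, a prostaglandin E2 receptor, averaged 16.2 ± 1.9 TPM at 8 h and 2.69 ± 0.75 TPM at 4 h (SD, n = 3 each). Alpl, tissue-nonspecific alkaline phosphatase, averaged 12.6 ± 0.7 TPM and 1.74 ± 0.85 TPM, and Dnph1, a nucleotide hydrolase, 17.8 ± 4.8 TPM and 2.20 ± 1.07 TPM. The rest of the 14 were Plek, the chemokine gene Ccl9, the protease inhibitor gene Serpine2, Ccdc50 and Il12rb1. Their log2 fold changes ran from 2.28 for Il12rb1 to 3.16 for Plek.

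Rasgrp2 (chr19:6399340-6415216, plus strand), an exchange factor that activates RAP1, had the largest decrease among the named genes. It read 7.25, 0.82 and 1.42 TPM at 8 h, against 14.6, 16.4 and 22.5 TPM at 4 h, with mouse 4 above the other mice at 8 h (log2 fold change −2.62 ± 0.39, adjusted p = 2.9e-05). Smox (chr2:131491496-131525922, plus strand) had 9.14, 11.4 and 7.51 TPM at 8 h, against 38.5, 48.1 and 39.3 TPM at 4 h (log2 fold change −2.07 ± 0.22, adjusted p = 1.95e-09). Mxd1 (chr6:86647042-86669161, minus strand) had 5.08, 4.07 and 4.45 TPM at 8 h, against 19.4, 19.2 and 19.7 TPM at 4 h (log2 fold change −2.05 ± 0.17, adjusted p = 4.69e-12). Hsd11b1 (chr1:193221634-193264075, minus strand), the enzyme that regenerates active glucocorticoid, was more abundant, with 48.9, 43.4 and 50.7 TPM at 8 h, against 201, 168 and 158 TPM at 4 h. Pde2a, a cyclic nucleotide phosphodiesterase, averaged 32.2 ± 6.2 TPM at 8 h and 121 ± 7 TPM at 4 h (SD, n = 3 each).

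Id1, an inhibitor of basic helix-loop-helix factors, had 3.17, 5.96 and 6.13 TPM at 8 h, against 24.2, 17.7 and 16.3 TPM at 4 h. G0s2, an inhibitor of triglyceride lipase, had 0, 4.17 and 1.34 TPM at 8 h, against 11.4, 10.1 and 11.4 TPM at 4 h, the 8 h libraries being wide apart and resting on 21 counts. Map1lc3a, a homologue of the autophagy protein ATG8, was uneven, with 7.03, 2.04 and 1.34 TPM at 8 h, against 10.6, 13.2 and 28.5 TPM at 4 h. Gvin1, a very large interferon-inducible GTPase, averaged 10.1 ± 5.2 TPM at 8 h and 58.1 ± 13.2 TPM at 4 h (SD, n = 3 each), and it belongs to a family of near-identical copies between which reads could be split. The rest of the 14 largest decreases were Fam101b, Epb4.1l2, Vps37b, Ldlrad4 and Csrp1, with log2 fold changes between −2.56 for Fam101b and −1.81 for Csrp1. Exons of Acsl6, Plek, Bcat1, Ptger2, Rasgrp2, Vps37b, Pde2a and Ldlrad4 overlap other genes in the GENCODE annotation, and no strand is stated for the counts, so reads of the shared stretches cannot be told apart.

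**Figure D1:**
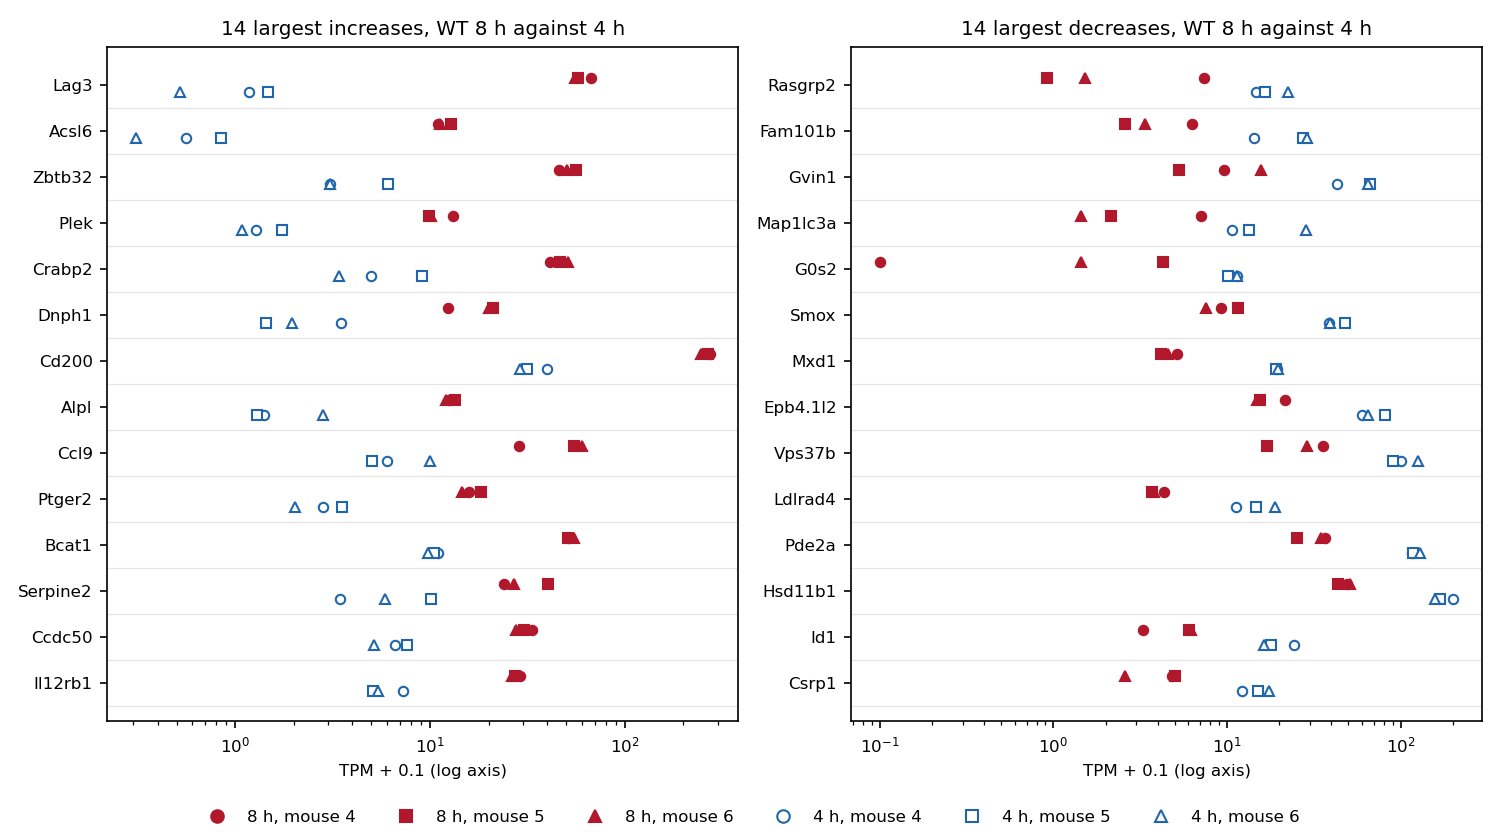
TPM + 0.1 on a log axis for the 14 genes with the largest increases (left) and the 14 with the largest decreases (right); filled symbols are the 8 h libraries and open symbols the 4 h libraries of WT mice 4, 5 and 6. By the rule that named the genes, filled and open symbols do not overlap in any row, and means run from Lag3 at 60.1 against 0.957 TPM on average to Csrp1 at 4.05 against 14.8 TPM.

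Genes were next sorted by what they had done before 4 h and what they did after 8 h. The contrasts that define these classes share the 4 h or the 8 h libraries, so class sizes are descriptions. A gene was said to start in the interval when it was not called at 4 against 0 h, where 59% of the tested genes were, lay within 0.5 of 0 there on the log2 scale, and then changed at least 2-fold. There were 109 such rises (0.95% of the tested genes) and 178 such falls (1.55%). Of the rises, 59 were higher again at 24 than at 8 h and 7 were lower, a contrast in which 58.7% of the tested genes were called. Of the falls, 71 were lower again at 24 h and 36 were higher. Of all tested genes, 24.7% were called higher and 34.1% lower in that contrast.

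Il12rb1 (chr8:70808449-70821424, plus strand), a subunit of the receptors for IL-12 and IL-23, led the rises that started after 4 h. Over the 4 times it averaged 8.17, 5.84, 27.5 and 78.5 TPM at 0, 4, 8 and 24 h. Its mice had 28.9, 27.2 and 26.4 TPM at 8 h, against 7.19, 5.02 and 5.30 TPM at 4 h (log2 fold change 2.28 ± 0.30, adjusted p = 7.25e-06). Tpi1, the glycolytic enzyme triose phosphate isomerase, was the most abundant of the 6 named, with 225, 255 and 245 TPM at 8 h, against 66.8, 75.2 and 81.3 TPM at 4 h. At 0 h it averaged 78.9 TPM and at 24 h 872 TPM, and little change by 4 h was a condition of its class. Exons of Tpi1 overlap those of Spsb2 on the other strand. Pecr, a peroxisomal enoyl-CoA reductase, averaged 26.2 ± 1.7 TPM at 8 h and 7.23 ± 1.98 TPM at 4 h (SD, n = 3 each), and Chchd6, a subunit of the complex that shapes mitochondrial cristae, 18.7 ± 0.1 and 4.30 ± 2.09 TPM. Cers6, a ceramide synthase, was transient: it averaged 3.63, 3.08, 10.6 and 4.53 TPM at 0, 4, 8 and 24 h. Ube2cbp was also lower at 24 than at 8 h, with means of 9.29, 7.42, 29.0 and 22.9 TPM at the 4 times.

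Among the falls that started after 4 h, Hsd11b1 averaged 195 and 176 TPM at 0 and 4 h, then 47.7 TPM at 8 h and 2.23 TPM at 24 h. Map4k2, a kinase upstream of JNK, had 29.4, 17.0 and 27.0 TPM at 8 h, against 78.2, 84.3 and 84.3 TPM at 4 h, and its mean of 88.4 TPM at 0 h lay near the 4 h values (log2 fold change 8 against 4 h −1.72 ± 0.12, adjusted p = 4.42e-13). Suv420h2, a histone H4 methyltransferase, averaged 21.1, 15.5, 4.71 and 12.4 TPM at 0, 4, 8 and 24 h. G0s2, Gvin1 and Fam101b completed the 6, and each was lower again at 24 h, at 0.143, 1.17 and 1.72 TPM.

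A change already called by 4 h and continued in the same direction was more common, with 1265 genes (11%) that rose in both steps and 943 (8.22%) that fell in both steps. Of these, 104 and 120 moved at least 2-fold in each step. Lag3, Acsl6, Zbtb32, Plek, Crabp2 and Cd200 led the continued rises. Among the continued falls, Klf2, a factor that keeps T cells quiescent and recirculating, had 16.1, 6.82 and 8.76 TPM at 8 h, against 34.2, 37.4 and 32.8 TPM at 4 h. It averaged 49.6 TPM at 0 h and 0.4 TPM at 24 h. Cd7, a T cell surface receptor, averaged 258, 50.05, 15.1 and 0.767 TPM at the 4 times, and Dusp1, a phosphatase that switches off MAP kinases, 112, 48.0, 13.5 and 6.79 TPM. Crip1 fell to 157, 125 and 122 TPM at 8 h, against 514, 434 and 452 TPM at 4 h, and did not pass the test at 24 against 8 h (log2 fold change 0.17, adjusted p = 0.274). Lgals1, which encodes galectin-1, fell in both steps and then turned: 134, 20.1, 5.51 and 53.4 TPM at 0, 4, 8 and 24 h.

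The interval was also where many early changes turned round. Of the genes called higher at 4 than at 0 h, 550 (4.8% of the tested genes) were called lower at 8 than at 4 h. At 8 against 0 h, where 67.4% of all tested genes were called, 195 of them were still above 0 h, 65 were below it and 290 did not differ by the test. Smox averaged 3.33, 42.0, 9.36 and 3.02 TPM at 0, 4, 8 and 24 h, and Mxd1 7.89, 19.4, 4.53 and 2.42 TPM. Epb4.1l2, a membrane skeleton protein, had 21.4, 15.5 and 14.8 TPM at 8 h, against 59.7, 81.6 and 65.0 TPM at 4 h, and averaged 14.6 TPM at 0 h and 16.1 TPM at 24 h. Vps37b, a subunit of the ESCRT-I sorting complex, averaged 64.8, 105, 27.2 and 6.17 TPM, and Ldlrad4, an inhibitor of TGF-beta signalling, 6.66, 14.8, 3.84 and 1.65 TPM. Without mouse 5, 356 genes met this definition.

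The opposite turn, lower by 4 h and higher at 8 h, was called for 512 genes (4.46%). At 8 h, 148 of these were still below 0 h, 71 were above it and 293 did not differ by the test. Prf1 (chr10:61297833-61304680, plus strand), which encodes the pore-forming protein perforin, had 54.1, 56.1 and 56.0 TPM at 8 h, against 12.5, 23.9 and 17.5 TPM at 4 h (log2 fold change 1.70 ± 0.21, adjusted p = 2.13e-06). Its mean was 64.3 TPM at 0 h, so the 8 h level lay near the starting one (8 against 0 h, log2 fold change −0.06, adjusted p = 0.793). Phgdh (chr3:98313170-98339990, minus strand), the first enzyme of serine synthesis, had 265, 289 and 303 TPM at 8 h, against 90.4, 96.2 and 91.7 TPM at 4 h (log2 fold change 1.69 ± 0.10, adjusted p = 2.03e-15). It averaged 188 TPM at 0 h and 1253 TPM at 24 h. Coq7, an enzyme of ubiquinone synthesis, averaged 19.3, 10.1, 34.7 and 103 TPM at the 4 times, Txnrd2, the mitochondrial thioredoxin reductase, 16.2, 7.60, 24.1 and 43.8 TPM, and Nme4, a mitochondrial nucleoside diphosphate kinase, 18.1, 3.23, 11.3 and 55.6 TPM. Scrn2 averaged 16.3, 3.95, 13.3 and 19.9 TPM. The count was 274 without mouse 5 and 331 without mouse 6.

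At 8 h 557 genes peaked (4.86%), being higher than at 4 h, lower again at 24 h and highest at 8 h, and 378 had their trough (3.3%). Il3 (chr11:54265303-54267277, minus strand), a growth factor for blood progenitors, was at 0 TPM in the 0 h libraries and had 217, 318 and 331 TPM at 8 h, against 58.6, 90.7 and 61.4 TPM at 4 h. Its mean was 102 TPM at 24 h. Ncs1, a calcium sensor, averaged 0.4, 10.3, 46.2 and 25.4 TPM at the 4 times, and Alpl 0.0633, 1.74, 12.6 and 9.11 TPM. Cmss1 and Serf1 peaked at 90.2 ± 4.1 and 35.0 ± 5.0 TPM (SD, n = 3), against 71.8 and 23.0 TPM on average at 24 h. Of the 557 peaks, 35 moved at least 2-fold in both steps. The count was 258 without mouse 5 and 308 without mouse 6. With Rn45s left out of library sizes there were 403 peaks and 496 troughs, so which was more common depended on the setting.

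Among the genes with a trough, Jun, a component of the AP-1 factor, had 13.2, 8.62 and 13.9 TPM at 8 h, against 30.3, 39.8 and 45.0 TPM at 4 h. It averaged 71.5 TPM at 0 h and 19.3 TPM at 24 h, and its exons overlap an antisense gene. Dusp10, a phosphatase of JNK and p38, averaged 43.8, 18.3, 6.09 and 10.2 TPM at the 4 times, and Csrp1, a LIM domain protein of the actin cytoskeleton, 7.16, 14.8, 4.05 and 13.8 TPM. Ssbp4 had 7.39, 4.20 and 3.89 TPM at 8 h, against 11.2, 15.97 and 21.8 TPM at 4 h. Without mouse 5 the number of troughs was 220.

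**Figure D2:**
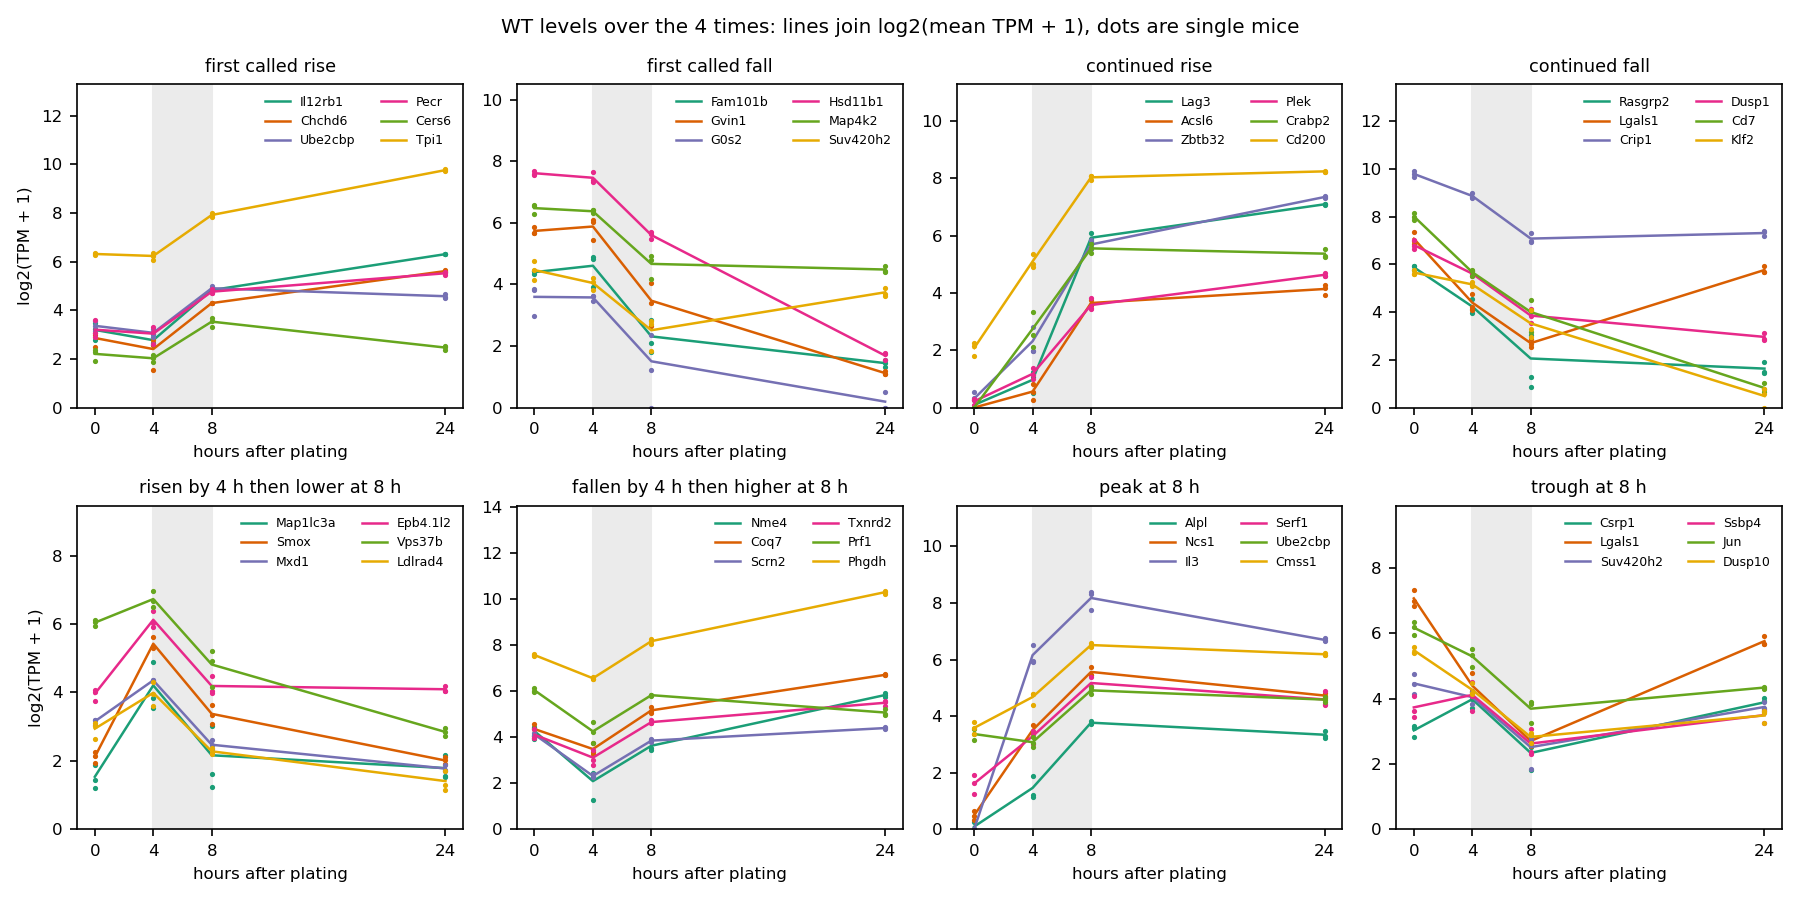
WT levels as log2(TPM + 1) over 0, 4, 8 and 24 h for the 6 named members of each class; lines join the logs of group means, dots are single mice and the grey band marks 4 to 8 h. By the rule of their class, the 6 first called rises change little before 4 h. Tpi1 had 78.9, 74.4, 242 and 872 TPM, and Il3 peaks at 288 TPM at 8 h.

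The classes were compared for short motifs in promoter windows, 300 bases from 250 before to 50 after a gene's start, taken from RefSeq (GRCm38.p6). Of the tested genes, 9227 had a window, 8546 of them matched by symbol. The E-box CACGTG, the site of MYC, MAX and MXD1 among other factors, and the NF-kappaB site are shown because Mxd1 fell within the interval and the NF-kappaB inhibitor gene Nfkbia turned in it. An E-box was in 17.6% of the windows of genes that peaked at 8 h and in 15.6% of those that rose in both steps, against 10.2% for all tested genes and 7.2% for all 32851 windows. It was in 6.3% of the windows of falls that started after 4 h and in 6.5% of those with a trough. An NF-kappaB site, searched in 4 forms of which the capitals in the Nfkbia and Mvp windows show examples, was in 1.5% of the windows of genes that rose by 4 h and then fell, 9 of 606, against 0.4% of the windows of tested genes and of all windows. The ETS site CCGGAAGT was in 12.1% of the windows of genes higher at 8 h and 5.4% of those lower, against 8.6% for tested genes and 3.9% for all. A match is a run of letters and not a measured site, and a gene can have several windows.

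Windows are given on the strand of the gene, 5′ to 3′, in lower case, with the motif in capitals. Ptprs (chr17:56476431-56476730, minus strand), a receptor tyrosine phosphatase, and Ube2cbp (chr9:86464867-86465166, minus strand) are the peaking genes with the smallest adjusted p that had an E-box, with 3 matches and 1 match. Nfkbia (chr12:55492598-55492897, minus strand) and Mvp (chr7:127014545-127014844, minus strand), which encodes the major vault protein, are the genes with the smallest adjusted p that rose by 4 h, fell at 8 h and had an NF-kappaB site, 1 match each.
Ptprs: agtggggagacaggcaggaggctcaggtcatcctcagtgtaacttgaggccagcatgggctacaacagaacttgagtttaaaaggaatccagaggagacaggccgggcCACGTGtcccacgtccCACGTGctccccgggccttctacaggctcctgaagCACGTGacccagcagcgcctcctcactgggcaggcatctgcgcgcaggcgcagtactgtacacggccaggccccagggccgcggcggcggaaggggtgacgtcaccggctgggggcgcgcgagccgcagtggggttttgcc
Ube2cbp: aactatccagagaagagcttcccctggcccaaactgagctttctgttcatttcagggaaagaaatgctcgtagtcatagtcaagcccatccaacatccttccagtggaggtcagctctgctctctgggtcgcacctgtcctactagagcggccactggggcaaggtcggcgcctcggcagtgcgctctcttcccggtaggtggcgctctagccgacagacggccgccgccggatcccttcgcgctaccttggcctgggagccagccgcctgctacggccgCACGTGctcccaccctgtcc
Nfkbia: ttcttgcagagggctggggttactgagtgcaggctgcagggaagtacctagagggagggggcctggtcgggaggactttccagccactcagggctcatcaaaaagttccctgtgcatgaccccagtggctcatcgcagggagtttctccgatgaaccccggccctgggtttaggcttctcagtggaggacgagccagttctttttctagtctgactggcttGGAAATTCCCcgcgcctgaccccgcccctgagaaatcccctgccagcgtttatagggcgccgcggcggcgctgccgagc
Mvp: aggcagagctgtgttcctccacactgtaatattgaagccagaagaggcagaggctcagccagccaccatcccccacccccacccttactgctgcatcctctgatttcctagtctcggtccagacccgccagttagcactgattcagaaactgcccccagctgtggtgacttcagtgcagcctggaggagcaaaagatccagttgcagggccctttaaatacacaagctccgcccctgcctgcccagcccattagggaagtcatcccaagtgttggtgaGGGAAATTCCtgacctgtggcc

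Ptprs averaged 24.4 ± 3.3 TPM at 8 h and 8.20 ± 0.88 TPM at 4 h (SD, n = 3 each), and 13.3 TPM at 24 h. Nfkbia, which holds NF-kappaB in the cytoplasm, had 437, 480 and 460 TPM at 8 h, against 928, 951 and 862 TPM at 4 h, and Mvp had 35.7, 31.0 and 35.8 TPM, against 54.7, 72.5 and 66.3 TPM. In both the 8 h libraries were lower without overlap, and both were shown for a small adjusted p. Scaled counts did not overlap in 46.5% of all tested genes.

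The other motifs searched on both strands were E2F (TTTCCCGC, TTTGGCGC, TTTCGCGC), AP-1 (TGACTCA), CRE (TGACGTCA), EGR (GCGTGGGCG, GCGGGGGCG), KLF (CCACACCC), and the longer NRF1, ISRE, YY1 and SRF motifs. Searched too were TCF (CTTTGAT), the amino acid response element (TGATGCAAT, TGATGAAAC), NFAT (TGGAAAA), the heat shock element (GAANNTTC), the hypoxia element (ACGTGC), the CCAAT box (CCAAT) and the longer ER stress element, which contains a CCAAT box. The hypoxia element shares its letters with an E-box followed by C. This element was in 10.7% of windows of genes higher at 8 h and 7.0% of those lower, against 8.3% for tested genes and 5.9% for all. Its share was 13.0% for genes that peaked at 8 h and 10.4% for those that rose by 4 h and then fell. For an AP-1 site the shares were 3.3% of windows of genes higher at 8 h and 3.8% of those lower, against 3.6% for tested genes and 5.2% for all. For E2F they were 4.6% and 3.1%, against 3.6% for tested genes and 1.8% for all, and for a TCF site 2.4% in both directions, against 2.6% and 3.7%.

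Groups of genes were described by the number of members that passed the test, to be read against the 21.9% of all tested genes called higher and the 19.7% called lower. Class counts within groups stand against 11% continued rises, 8.22% continued falls and 4.86% peaks among all tested genes. Genes risen by 4 h and then lower made up 4.8%, and the opposite turn 4.46%. Class counts within groups were not repeated under the alternatives. Of 24 immediate early genes, which respond to receptor signals without new protein, 18 fell and 1 rose (2 without mouse 4), with a median log2 fold change of −0.87. Of the 24, 13 belonged to the class that had risen by 4 h and then fell. Ier3 had 51.7, 55.5 and 54.2 TPM at 8 h, against 171, 163 and 152 TPM at 4 h (log2 fold change −1.53 ± 0.15, adjusted p = 2.15e-10). Junb fell to 314, 299 and 312 TPM, against 561, 570 and 570 TPM at 4 h, and Nr4a3, an orphan nuclear receptor induced by T cell receptor signals, to 40.8, 48.3 and 52.3 TPM, against 99.6, 105 and 115 TPM. The groups did not overlap for any of the 3, which were named for a small adjusted p. Scaled counts did not overlap in 46.5% of all tested genes. Fosl1, an AP-1 component, was the 1 that rose, with 73.0, 90.3 and 89.1 TPM at 8 h, against 34.2, 47.1 and 37.8 TPM at 4 h (log2 fold change 1.16 ± 0.14, adjusted p = 5.86e-08).

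Of 16 genes for NF-kappaB subunits and inhibitors, 11 fell and 0 rose (median −0.65), and 9 of them had risen by 4 h. Relb had 132, 131 and 123 TPM at 8 h, against 263, 273 and 251 TPM at 4 h. Nfkbiz fell by 0.82 and Tnip1 by 1.2 on the log2 scale (adjusted p = 1.07e-07 and 2.05e-07). Dual-specificity phosphatases and sprouty genes, which damp MAP kinase signalling, did not move together: of 13, Dusp4, Spry1 and Spry2 rose and Dusp1, Dusp2, Dusp10 and Dusp16 fell, while 2 fell without mouse 5 and 1 rose without mouse 6. Spry1 rose by 0.55 ± 0.12 (adjusted p = 0.000302), with 89.0, 52.2 and 76.9 TPM at 8 h, against 53.7, 53.0 and 45.4 TPM at 4 h, values that overlap between the groups. Of 33 genes of T cell receptor signalling, 22 fell and 3 (Cd5, Cd6 and Ubash3b) rose (median −0.44), the rises numbering 1 without mouse 5 or without mouse 6. Dgka, a diacylglycerol kinase that limits this signalling, had 147, 117 and 146 TPM at 8 h, against 425, 510 and 456 TPM at 4 h (log2 fold change −1.71 ± 0.09, adjusted p = 1.45e-16), and its exons overlap those of Pmel. Cd247, the zeta chain of the receptor, fell by 0.96 and Cd8b1 by 0.75 on the log2 scale. Of 14 genes of NFAT and calcineurin feedback, 7 fell and 3 (Fkbp1a, Nfat5 and Ppp3r1) rose, and the number that fell was 3 without mouse 5 and 4 without mouse 6. Fkbp1a rose to 737, 752 and 740 TPM at 8 h, against 428, 415 and 378 TPM at 4 h, and Nfat5 rose as well (log2 fold change 0.76), while Nfatc1 and Cabin1 fell by 0.57 and 0.51.

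Cytokine and chemokine genes rose more often than they fell. Of 18 cytokine genes 8 were tested, of which 4 rose (Il2, Il3, Ifng and Lta) and 1 fell (Ltb; 2 fell without the 8 h library of mouse 5), and all 4 that rose peaked at 8 h. Il2, the T cell growth factor (chr3:37120523-37125959, minus strand), had 2191, 3234 and 2308 TPM at 8 h, against 1087, 1513 and 994 TPM at 4 h (log2 fold change 1.19 ± 0.20, adjusted p = 0.000203). Every 8 h library was above every 4 h library, and scaled counts of the groups did not overlap in 46.5% of all tested genes. Ifng averaged 333 ± 54.5 TPM and 243 ± 36.0 TPM (SD, n = 3 each), with overlap between the mice, 275, 342 and 383 TPM at 8 h, against 283, 234 and 212 TPM at 4 h (adjusted p = 0.0348). Without mouse 5, its 8 h library or mouse 6, 3 cytokine genes were called higher, and Ifng was not among them. Its call was also lost with no filter on low counts and with limma on log2(TPM + 0.1). Lta had 394, 447 and 386 TPM at 8 h, against 224, 211 and 202 TPM at 4 h, whereas Ltb, its membrane partner, had 443, 380 and 376 TPM at 8 h, against 714, 749 and 701 TPM at 4 h. Tnf did not pass the test, at 883 ± 72 and 1036 ± 131 TPM (SD, n = 3 each; adjusted p = 0.263).

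Of 8 tested chemokine genes (12 members), 4 rose and 0 fell, among them the 3 most abundant. Ccl3, a chemoattractant of leukocytes, had 5494, 6862 and 5921 TPM at 8 h, against 2374, 2831 and 2059 TPM at 4 h (log2 fold change 1.40 ± 0.15, adjusted p = 1.12e-06). Xcl1, which attracts cross-presenting dendritic cells, had 12693, 15255 and 15122 TPM at 8 h, against 7791, 7073 and 7884 TPM at 4 h, and Ccl4 16775, 20813 and 17955 TPM, against 13252, 14225 and 11885 TPM. Together Xcl1, Ccl3 and Ccl4 made up 3.5, 4.29 and 3.9% of all TPM in the 8 h libraries and 2.34, 2.41 and 2.18% in the 4 h libraries, and Ccl4 ranked behind Rn45s alone in all of the 8 h libraries. In the 24 h libraries the sum was 0.745 to 0.849%. The call for Ccl4 (log2 fold change 0.56, adjusted p = 0.00352) was lost under 2 of the 12 alternatives and that for Xcl1 under 1.

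Receptors divided. Of 15 tested inhibitory and co-stimulatory receptor genes, 7 rose and 1, the early activation marker Cd69, fell (median 0.80). Besides Lag3 and Cd200, the ligand gene Pdcd1lg2 averaged 15.7 ± 0.5 TPM at 8 h and 6.54 ± 0.56 TPM at 4 h, and Btla, an inhibitory receptor, 71.9 ± 8.4 TPM and 42.7 ± 1.4 TPM (SD, n = 3 each). Pdcd1, the gene of PD-1, had 172, 211 and 177 TPM at 8 h, against 92.1, 95.1 and 72.8 TPM at 4 h (adjusted p = 8.31e-06). Cd28 had 27.8, 11.6 and 23.7 TPM at 8 h, against 24.6, 19.4 and 24.0 TPM at 4 h, and did not pass the test (log2 fold change −0.09 ± 0.18, adjusted p = 0.73). Of 26 cytokine receptor and STAT5 feedback genes, 15 fell and 2 (Il12rb1 and Il15ra) rose (median −0.61), 1 without mouse 5 or its 8 h library. Ifngr1, the ligand-binding chain of the interferon gamma receptor, had 179, 138 and 186 TPM at 8 h, against 517, 497 and 554 TPM at 4 h (log2 fold change −1.59 ± 0.15, adjusted p = 9.84e-09). Ifngr2 fell by 1.39, Socs3 by 1.53 and Il4ra by 0.91 on the log2 scale, against the rise of Il12rb1 by 2.28.

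In the TNF superfamily 3 of 18 genes (Tnfrsf4, Tnfrsf9 and Tnfsf8) rose and 7 fell. Tnfrsf4, the co-stimulatory receptor OX40, had 87.7, 91.1 and 86.7 TPM at 8 h, against 23.5, 33.2 and 19.7 TPM at 4 h (log2 fold change 1.86 ± 0.16, adjusted p = 6.4e-11). Cd40lg had 31.5, 17.9 and 29.8 TPM at 8 h, against 87.1, 83.3 and 85.5 TPM at 4 h, and Fas and Tnfrsf25 fell by 1.02 and 1.33 on the log2 scale. Of 13 tested cytotoxic granule genes, 6 rose and 2 (Ctsw and Srgn) fell, 1 without mouse 4. Beside Prf1, Serpinb6b rose by 1.67 ± 0.13 (adjusted p = 1.21e-10) and Nkg7, a granule membrane protein, had 1455, 1562 and 1398 TPM at 8 h, against 717, 622 and 678 TPM at 4 h. Ctsw, cathepsin W, fell by 0.91 ± 0.10 (adjusted p = 2.12e-09). Of 17 tested chemokine and egress receptors, 2 (Cxcr6 and Gpr65) rose and 6 fell. Gpr183 and S1pr4 fell by 1.44 and 1.10, Ccr7, the receptor that keeps T cells in lymph nodes, by 0.57, and Gpr65 rose by 0.88 on the log2 scale. Cxcr6 had 105, 119 and 115 TPM at 8 h, against 72.4, 73.2 and 66.8 TPM at 4 h (log2 fold change 0.74 ± 0.13, adjusted p = 3.33e-05). All 3 mice were higher at 8 h for Cxcr6, and its mean at 24 h was 20.1 TPM.

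Of 24 genes of naive and quiescent T cells, 17 fell and 2 (Foxp1 and Slfn2) rose (median −0.85; 1 rose with any single mouse left out), and 12 of them fell in both steps from 0 h. Tcf7 (chr11:52252371-52283014, minus strand) had 87.4, 52.6 and 81.3 TPM at 8 h, against 180, 205 and 190 TPM at 4 h (log2 fold change −1.34 ± 0.12, adjusted p = 6.96e-10). The related factor gene Lef1 had 94.4, 77.4 and 97.4 TPM at 8 h, against 162, 158 and 162 TPM at 4 h (log2 fold change −0.84 ± 0.11, adjusted p = 4.25e-08). In both genes mouse 5 was lowest at 8 h. Txnip, an inhibitor of glucose uptake, averaged 165, 43.2, 14.4 and 8.16 TPM over the 4 times, and Satb1, a chromatin organiser, 76.7, 71.5, 28.6 and 10.9 TPM. Ets1 fell by 0.86 on the log2 scale. Of 8 GIMAP GTPases, small GTPases that support lymphocyte survival, 7 fell and 0 rose (median −0.76). Gimap3 had 281, 203 and 263 TPM at 8 h, against 467, 461 and 506 TPM at 4 h, and Gimap4, Gimap6 and Gimap9 fell by 0.79, 0.74 and 0.80.

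Of 22 tested effector and memory fate factors, 11 fell and 2 (Rbpj and Zeb2) rose, and without mouse 6 the number that fell was 7. Rbpj, the DNA-binding partner of Notch, rose by 1.24 ± 0.10 (adjusted p = 4.52e-12), with 48.2, 31.7 and 38.8 TPM at 8 h, against 17.1, 19.2 and 15.8 TPM at 4 h. Stat3 fell by 1.03, Ikzf2 by 1.49 and Stat4 by 0.52 on the log2 scale. Of 29 tested interferon-stimulated genes, 11 fell and 1, Bst2, rose (median −0.85), and the number that fell ran from 8 to 17 over the alternatives. Irf7 had 14.2, 8.88 and 13.1 TPM at 8 h, against 39.6, 40.9 and 37.6 TPM at 4 h (log2 fold change −1.67 ± 0.21, adjusted p = 5.9e-07). Stat2, Irf9 and Trim30a fell by 1.31, 0.94 and 0.74. Exons of Irf7, Irf9, Stat3, Stat4 and Cd247 overlap other genes.

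Growth genes rose broadly and by modest amounts. Of 56 ribosome biogenesis genes, 50 rose and 0 fell (median 0.48), 49 of them in continuation of a rise by 4 h, and 36 of the 56 peaked at 8 h. Of all tested genes, 11% continued a rise and 4.86% peaked. Peaks within the group were not recounted with mice left out. Npm1, a chaperone of ribosome assembly in the nucleolus, had 5191, 5376 and 5160 TPM at 8 h, against 3391, 3159 and 3041 TPM at 4 h (log2 fold change 0.77 ± 0.08, adjusted p = 1.37e-09). Ebna1bp2, Nop10 and Ncl rose by 0.88, 0.79 and 0.64 on the log2 scale. By contrast, of 59 cytosolic ribosomal protein genes 23 fell and 3 (Rpl7a, Rpl30 and Rpl34) rose (median −0.13), and the number that fell ran from 9 to 39 over the alternatives, with 9 lower and 7 higher without mouse 4 and 13 lower without mouse 6. Rps27 had 3292, 2073 and 3824 TPM at 8 h, against 8500, 8209 and 8750 TPM at 4 h, Rplp1 fell by 0.39 on the log2 scale, and Rpl34 rose by 0.77. Ribosomal protein genes have many near-identical copies in the genome, and reads could be split among them.

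Of 35 translation initiation factor genes 26 rose and 0 fell (median 0.39; 1 fell without mouse 4), and of 20 cytosolic aminoacyl-tRNA synthetases 19 rose and 0 fell (median 0.57). Eif4ebp1, a repressor of cap-dependent initiation, had 88.6, 82.7 and 93.7 TPM at 8 h, against 29.3, 30.0 and 33.0 TPM at 4 h (log2 fold change 1.58 ± 0.14, adjusted p = 1.1e-10). Eif2b1, Eif5a and Eif1ax rose by 1.05, 0.66 and 0.64 on the log2 scale. Gars, Yars, Farsb and Dars, the synthetases for glycine, tyrosine, phenylalanine and aspartate, rose by 0.82, 0.87, 0.76 and 0.76. In the MYC network 1 of 9 tested genes rose (Mlx) and 2 fell (Mxd1 and Mlxip), against 0 that rose without mouse 5 or mouse 6 and 1 that fell without mouse 6. Myc itself averaged 1003 ± 78 TPM at 8 h and 1161 ± 40 TPM at 4 h (SD, n = 3 each) and did not pass the test (adjusted p = 0.216).

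Of 34 proteasome subunit genes 33 rose and 0 fell (median 0.66). Psma1 had 559, 531 and 496 TPM at 8 h, against 308, 275 and 275 TPM at 4 h (log2 fold change 0.94 ± 0.09, adjusted p = 7.58e-11), and Psmd1, Psmd7 and the assembly factor Pomp rose by 0.96, 0.92 and 0.87. Of 23 tested cytosolic chaperones 16 rose and 1, the heat shock factor gene Hsf1, fell (median 0.63), a fall that was not called with any single mouse left out. Cct6a, a subunit of the chaperonin that folds actin and tubulin, had 708, 736 and 721 TPM at 8 h, against 433, 392 and 351 TPM at 4 h, and Cct2, Cct7 and Tcp1 of the same complex rose by 0.68, 0.74 and 0.74 on the log2 scale. Of 25 tested genes of ER folding and the unfolded protein response, 13 rose and 1 fell (median 0.30; 0 fell without mouse 5 or its 8 h library), led by Hsp90b1 (log2 fold change 0.76), Sdf2l1 (1.65), Pdia4 (0.77) and Atf6 (1.21). Of 41 tested splicing factors 26 rose and 0 fell (median 0.37). Hnrnpa1 had 1416, 1385 and 1349 TPM at 8 h, against 664, 628 and 653 TPM at 4 h, and Srsf3 rose by 1.03 on the log2 scale.

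Genes for mitochondrial proteins rose at 8 h, some after a rise by 4 h and some after a fall. Of 38 nuclear genes for subunits of oxidative phosphorylation, 35 rose and 0 fell (median 0.45), 11 of them after a fall by 4 h and 11 after a rise. Without mouse 5, 22 of the 38 rose (median 0.33). Atp5c1, of ATP synthase, had 496, 478 and 471 TPM at 8 h, against 341, 319 and 337 TPM at 4 h (log2 fold change 0.59 ± 0.08, adjusted p = 1.75e-07), and Uqcrq, Cycs and Ndufa4 rose by 0.79, 0.74 and 0.71. Of 33 mitochondrial ribosomal protein genes 27 rose and 1 (Mrpl4) fell (median 0.63), with Mrps22, Mrpl1, Mrpl20 and Mrpl11 at 0.99, 1.08, 0.83 and 1.14. Of 24 genes of mitochondrial import and chaperones 23 rose and 0 fell (median 0.65). Hspa9, the matrix HSP70, had 620, 648 and 628 TPM at 8 h, against 411, 383 and 351 TPM at 4 h, and Hspe1, Trap1 and Timm8a1 rose by 0.91, 0.82 and 0.88 on the log2 scale. Exons of Cct6a, Tcp1, Hspe1 and Trap1 overlap those of a neighbouring gene.

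Of 25 tested genes of glycolysis and glucose uptake, 16 rose and 1 fell (median 0.52). Gapdh had 2994, 3149 and 3263 TPM at 8 h, against 1613, 1648 and 1631 TPM at 4 h (log2 fold change 1.00 ± 0.08, adjusted p = 6.86e-12), and Pkm and Pfkp rose by 0.81 and 1.03 on the log2 scale. The hexokinases parted: Hk2 averaged 29.2 ± 4.0 TPM at 8 h and 18.2 ± 2.6 TPM at 4 h, and Hk1, the 1 gene that fell, 3.98 ± 2.17 TPM and 8.29 ± 0.51 TPM (SD, n = 3 each). Of 23 tested genes of serine, one-carbon and asparagine synthesis 16 rose and 1, the stress factor gene Ddit3, fell (median 0.73), the fall not being called without mouse 4. With Phgdh rose Psat1, the next enzyme of the serine pathway, at 238, 272 and 278 TPM at 8 h, against 106, 102 and 102 TPM at 4 h, and the folate enzymes Mthfd1 and Mthfd1l by 0.89 and 0.99. Of 23 tested genes of purine and pyrimidine synthesis 20 rose and 0 fell (median 0.65). Nme1 had 634, 711 and 590 TPM at 8 h, against 246, 231 and 236 TPM at 4 h, and Cad, which starts pyrimidine synthesis, Gart and Dut rose by 1.00, 0.89 and 1.08.

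Of 11 polyamine genes 6 rose and 3 fell: Sms, Dhps and Azin1 rose by 0.87, 0.84 and 0.58, while Smox fell. The rises numbered 3 without mouse 5 or its 8 h library, and the falls 1 without mouse 4. Of 16 tested amino acid transporters 7 rose and 1 fell, with Slc1a4 at 6.07, 5.35 and 3.97 TPM at 8 h, against 1.18, 1.3 and 0.75 TPM at 4 h. Slc16a10 rose by 1.17 (adjusted p = 7.55e-06), and its 28.0 TPM in mouse 4 stood apart from 11.5 and 12.4 TPM in mice 5 and 6. Without mouse 5 or without mouse 6, 4 of 17 tested transporters rose. Of 32 tested genes of sterol and fatty acid synthesis 10 rose and 4 fell (median 0.11), with 6 higher and 2 lower without mouse 5 and 2 lower without mouse 4. Lss, which makes lanosterol, had 25.8, 24.6 and 27.2 TPM at 8 h, against 12.5, 10.3 and 11.7 TPM at 4 h, and Idi1 and Fasn rose by 0.79 and 0.47 on the log2 scale.

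Cell cycle genes moved in both directions, as all tested genes did, of which 21.9% rose and 19.7% fell. Of G1 genes 25% rose and 32.1% fell, of DNA replication genes 40.8% and 6.12%, and of mitosis genes 9.68% and 6.45%. Of 28 tested G1 cyclins, kinases and inhibitors, 7 rose and 9 fell: the kinases Cdk4 and Cdk6 rose by 0.72 and 1.28, and the inhibitors Cdkn1b and Cdkn2d fell by 1.16 and 0.99 on the log2 scale. Of 49 DNA replication genes 20 rose and 3 (Cdt1, Lig1 and Rpa1) fell (median 0.30). Rfc4, of the clamp loader, had 42.0, 36.0 and 40.3 TPM at 8 h, against 14.9, 13.8 and 16.1 TPM at 4 h (log2 fold change 1.46 ± 0.14, adjusted p = 1.56e-10), and its exons overlap those of Eif4a2. Mcm2, Tipin and Prim1 rose by 0.98, 1.16 and 1.03. All 49 were called higher at 24 than at 8 h, as were 24.7% of all tested genes. Of 31 mitosis genes 3 (Cdc20, Mad2l1 and Nuf2) rose and 2 (Ndc80 and Cenpa) fell (median 0.03; 1 rose without mouse 6), and all 31 were called higher at 24 than at 8 h, with a median of 5.79. Ndc80, of the kinetochore, had 2.41, 1.64 and 2.47 TPM at 8 h, against 11.0, 7.90 and 6.75 TPM at 4 h, and Cenpa fell by 0.93, while Cdc20 and Nuf2 rose by 1.13 and 1.44. In the BCL2 family 4 of 16 tested genes rose (2 without mouse 5 or its 8 h library) and 5 fell. Bcl2l11, Mcl1 and Bbc3 fell by 0.77, 0.42 and 2.17, and Bcl2a1d, 1 of several near-identical copies, rose by 0.48 (adjusted p = 0.000597). The call for Bcl2a1d was lost under 2 of the 12 alternatives, and Bbc3 was tested under 11 of them. Of the genes named for these lists and classes, exons of Xcl1, Dusp1, Junb, Txnip, Cd7, Map4k2, Pecr, Serf1, Txnrd2, Lef1, Ctsw, Gapdh, Pfkp, Nme1, Gart, Mthfd1, Lss, Hsp90b1, Psmd1, Cct7, Cdk4, Cdk6, Cdc20, Dhps, Azin1, Mlx, Mlxip, Farsb, Yars, Gpr65, Il4ra and Ikzf2 also overlap another gene.

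**Figure D3:**
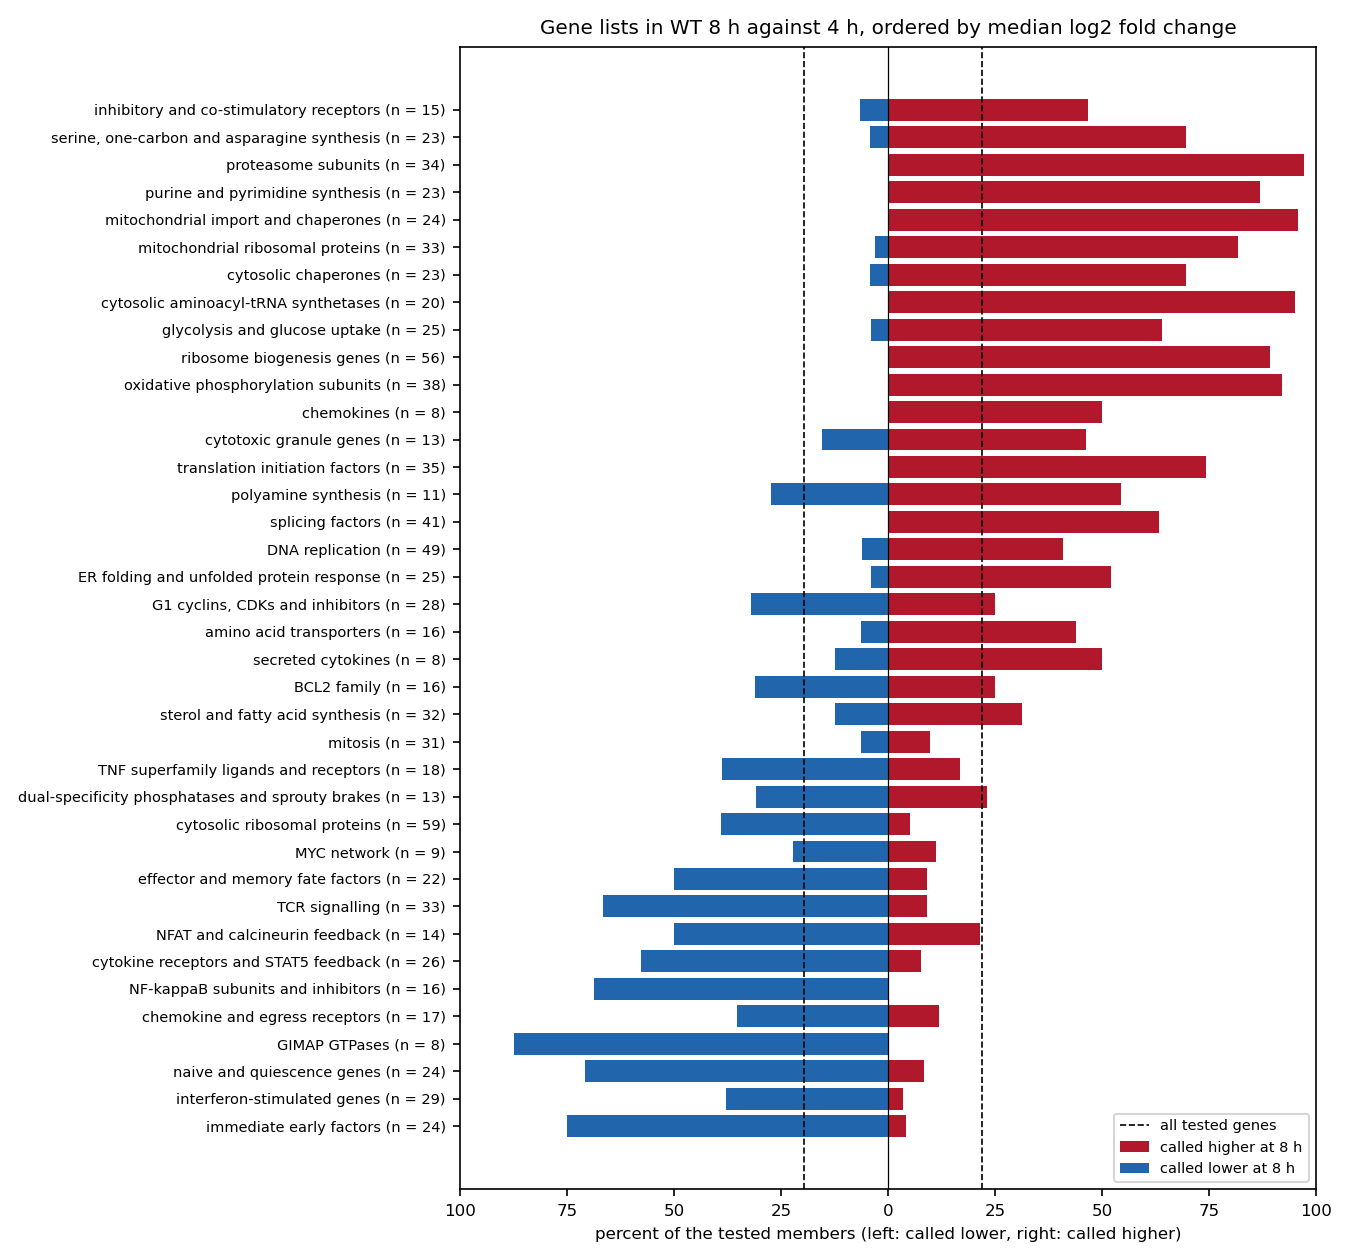
Percent of the tested members of each of 38 gene lists called higher (right, red) and lower (left, blue) at 8 h against 4 h in WT, ordered by median log2 fold change; dashed lines mark the 21.9% and 19.7% of all tested genes. Proteasome subunits reach 97.1% higher and 0 lower, and immediate early factors 75% lower and 4.17% higher.

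The same interval in the mice labelled cKO gives the change in separate animals. There 4636 genes changed between 4 and 8 h (40.4%), 2390 higher and 2246 lower. Of the genes called higher in WT, 1835 were also called higher in cKO, which is 73.1% of the WT and 76.8% of the cKO calls. Of those called lower, 1668 were shared, 73.7% of the WT and 74.3% of the cKO calls, and 8 genes were called in opposite directions, 1 (Ccdc77) higher in WT and 7 lower in WT. Pearson's r between the log2 fold changes was 0.63 across the 11470 tested genes, which are not independent replicates. Of the 109 rises that started after 4 h in WT, 91 (83.5%) were called higher in cKO, where 20.8% of all tested genes were, and of the 178 such falls 121 (68%) were called lower, where 19.6% were. Lag3 averaged 79.8 ± 16 TPM at 8 h and 1.18 ± 0.66 TPM at 4 h in cKO (SD, n = 3 each). The log2 fold change of Tcf7 was −1.34 in WT and −1.32 in cKO, and the difference was −0.03 ± 0.17 (adjusted p = 0.989).

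The difference in the change, WT minus cKO, passed the test for 7 genes (0.061% of those tested, and 976 at an unadjusted p under 0.05), all 7 lower in WT relative to cKO. Hgsnat, an acetyltransferase of lysosomal heparan sulfate breakdown, changed by −0.40 in WT and 1.25 in cKO on the log2 scale, a difference of −1.65 ± 0.30 (adjusted p = 0.0181). In WT it had 9.89, 6.39 and 5.66 TPM at 8 h, against 5.88, 12.4 and 11.5 TPM at 4 h. In cKO mice 1, 2 and 3 it had 11.0, 13.6 and 12.5 TPM at 8 h, against 6.28, 4.68 and 5.10 TPM at 4 h. WT mouse 4 was higher at 8 h, as the cKO mice were, and mice 5 and 6 were lower. Fbl, the methyltransferase fibrillarin of the nucleolus, changed by 0.37 in WT and 1.25 in cKO (difference −0.88 ± 0.17, adjusted p = 0.0268), with 215, 139 and 125 TPM at 8 h, against 107, 122 and 151 TPM at 4 h in WT. Irak1bp1, Deaf1, Tgif2, Vars and Fance differed by −2.89, −1.18, −1, −0.78 and −1.86. Irak1bp1 was low at 4 h, with 1.02, 0.37 and 0.46 TPM in cKO mice 1, 2 and 3. WT mice 4, 5 and 6 had 2.02, 2.26 and 2.83 TPM of it at 4 h. Fance had 4.08, 2.61 and 3.03 TPM at 4 h in cKO mice 1, 2 and 3. Exons of Tgif2 and Fance overlap other genes. Over these 7 genes, TPM was higher at 8 than at 4 h in 7 of 7 for WT mouse 4, in 2 of 7 for mouse 5 and in 0 of 7 for mouse 6, and in 7 of 7 for each cKO mouse. The genes were called on the difference in these same libraries, so these counts describe them and support nothing. In WT mouse 4 the log2 ratios were small for Irak1bp1, Deaf1 and Tgif2, at 0.049, 0.048 and 0.069. The count moved with the method and the mice: DESeq2 called 95, and edgeR called 184 without WT mouse 4 and 0 without mouse 5 or without mouse 6.

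Some of the largest WT changes had smaller fitted changes in cKO with a difference that did not pass the test. Ssbp4, Gvin1 and Map1lc3a were named for a large change in WT and are listed for the gap, so their smaller values in cKO support nothing. For Ssbp4 these were −1.64 in WT and 0.04 in cKO (difference −1.68 ± 0.36, adjusted p = 0.0677), for Gvin1 −2.47 and −0.35 (difference −2.12 ± 0.66, adjusted p = 0.265), and for Map1lc3a −2.41 and −0.34 (difference −2.07 ± 0.69, adjusted p = 0.269). Cxcr6, reported in every case and not for the size of its change, changed by 0.74 in WT and −0.09 in cKO (difference 0.83 ± 0.18, adjusted p = 0.0919). Its means were 113 and 70.8 TPM at 8 and 4 h in WT and 239 and 261 TPM in cKO.

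**Figure D4:**
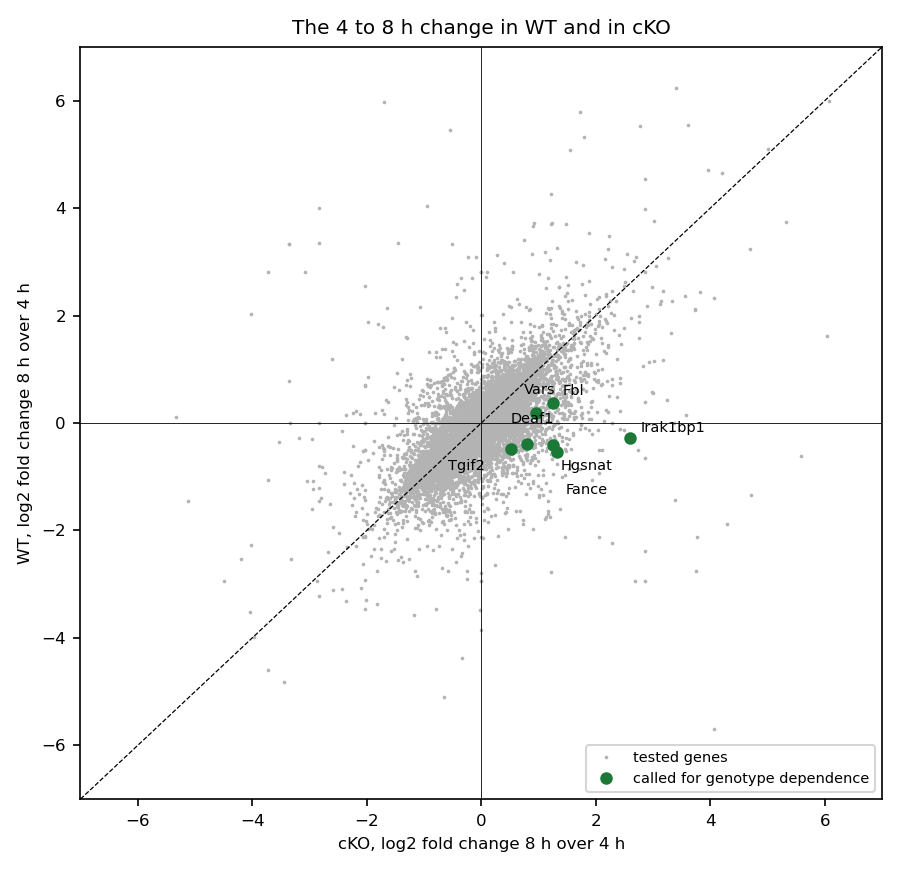
Log2 fold change 8 h over 4 h in WT (vertical) against that in cKO (horizontal) for the 11470 tested genes, with 5 genes outside the axes; the dashed line marks equal changes and green points the 7 genes called for a genotype difference. Those 7 lie below the line, Irak1bp1 farthest from it at −0.29 in WT and 2.61 in cKO.

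**Figure D5:**
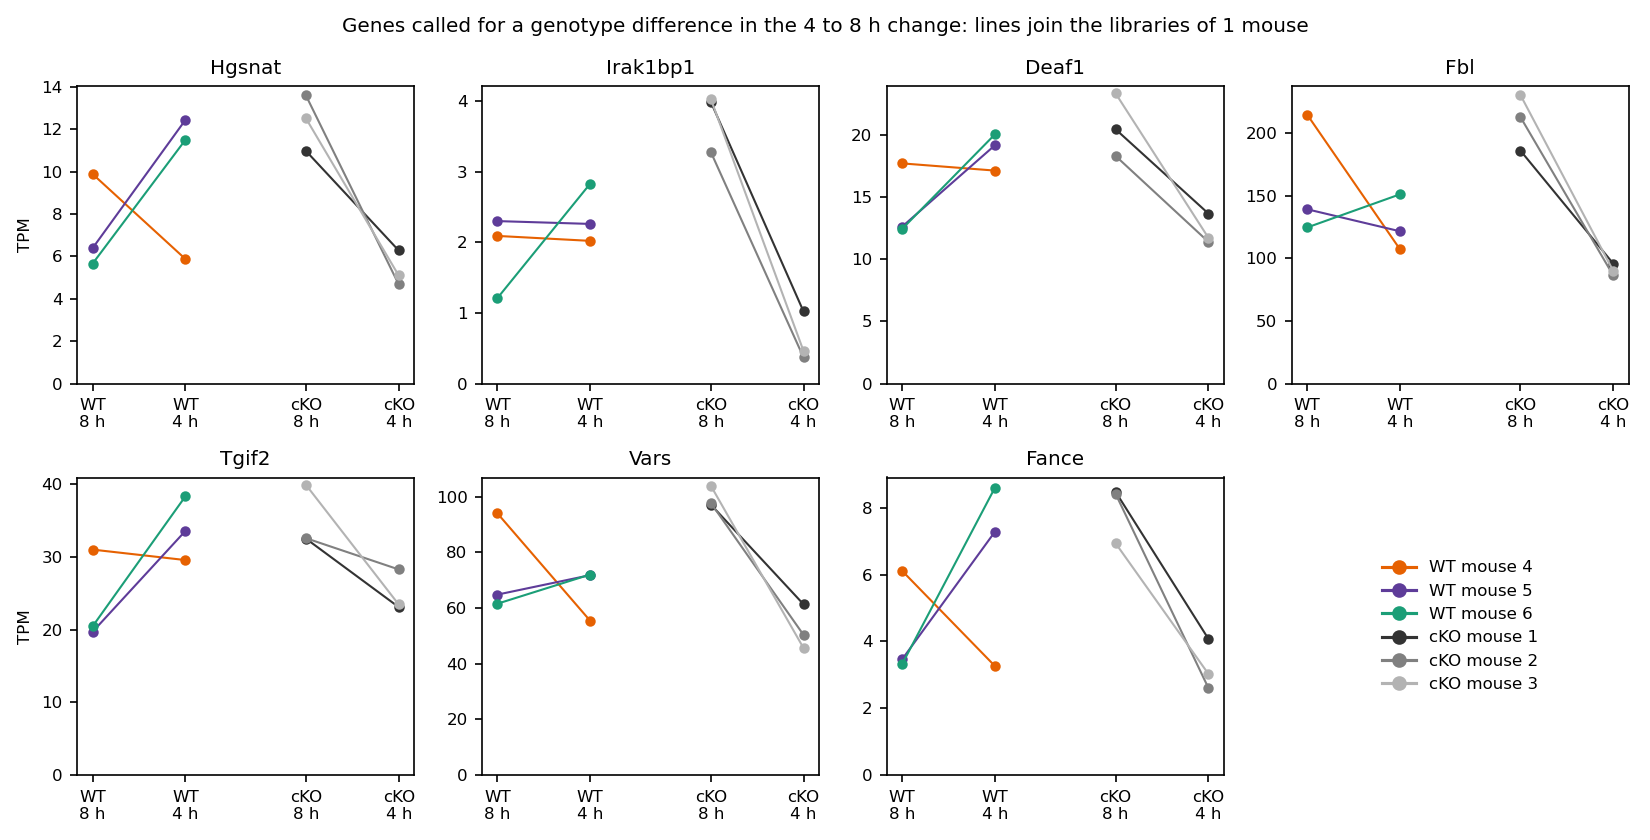
TPM at 8 h and 4 h of the 7 genes called for a genotype difference, each panel with WT on the left and cKO on the right and a line for each mouse. WT mouse 4 was higher at 8 h in 7 of 7 genes, but its lines are nearly flat for Irak1bp1, Deaf1 and Tgif2, and WT mouse 6 was lower at 8 h in 7 of 7. The genes were called on these same libraries.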

How the data were processed

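RNA of 24 libraries was measured by Smart-seq2 RNA-seq, 3 mice in each of 8 groups of genotype and time. The submitters' processing notes name STAR, RSEM, DESeq2 and mm10, their versions being not given in the sources used here. The authors deposited RSEM expected counts, TPM and FPKM per gene and library, per the file headers (FPKM not used here). Expected counts were rounded to whole numbers. Genes passed edgeR's filterByExpr over the 8 groups, were scaled by TMM and were tested with the robust quasi-likelihood F test (edgeR 4.0.16 in R 4.3.3), two-sided, with contrasts of group means over all 24 libraries. P-values were adjusted by Benjamini-Hochberg over 11470 genes and called under 0.05. The fit was tried on simulated counts in which few genes changed, equally in both directions. That setting does not test the calls where as many genes change as here. TPM gives levels per transcript length. Library depth was 5846265 to 9700397 expected counts, and the labels give no batch. Without molecular identifiers, reads are not independent molecules.

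The mouse number names 1 animal at all times, so numbers pair the libraries. Same-numbered 8 h and 4 h libraries had correlations of deviations from group means of −0.085, 0.003 and −0.026 for mice 4, 5 and 6. Alternatives were DESeq2 1.42.0, other filters, a mouse block, Rn45s left out of library sizes, limma 3.58.1 on log2(TPM + 1) and log2(TPM + 0.1), leaving out each WT mouse, leaving out the 8 h library of mouse 5, the WT libraries of 8 h and 4 h alone (with those of cKO for the genotype difference), and a 2-fold limit on class steps.

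Named genes were the 14 largest increases and 14 largest decreases among called genes with at least 10 TPM in the higher group, moved the same way in 3 mice and without overlap. To these come 6 per class within the same limits, 4 called members with the smallest adjusted p per list, up to 8 genes for the genotype difference, the genes of the shown promoters, and Tcf7, Lef1, Cxcr6 and Cd28. Some genes that this rule names are not reported here. Fosl1, Ifng, Tnf, Bst2, Pdcd1, Cd69, Myc, Hk1, Hk2, Ccdc77 and list members named beside counts were chosen after their values were seen. The comparison, the classes and the 38 lists were chosen with earlier results of these data known. Gene positions and exon overlaps are GENCODE's on GRCm38, and promoters RefSeq's.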

Additional observations from a re-analysis of the deposited data

Results flagged for a closer look

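For 7 genes the change from 4 to 8 h differed between WT and cKO by the test of the difference itself (edgeR's quasi-likelihood test, adjusted p under 0.05). On the log2 scale, WT minus cKO, it was −2.89 for Irak1bp1, −1.86 for Fance, −1.65 for Hgsnat, −1.18 for Deaf1, −1 for Tgif2, −0.88 for Fbl and −0.78 for Vars. The value for Irak1bp1 rested on 1.02, 0.37 and 0.46 TPM at 4 h in cKO mice 1, 2 and 3. Each gene was higher at 8 than at 4 h in 3 of 3 cKO mice and in WT mouse 4, where the log2 ratio was 0.049 for Irak1bp1, 0.048 for Deaf1 and 0.069 for Tgif2. In WT mouse 6 each was lower at 8 h. The genes were called on these same libraries, so the directions describe them and support nothing.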

How the results depend on the processing

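Between 4 and 8 h in WT, 1689 to 2590 genes were called higher and 1656 to 2484 lower over the alternatives. Which direction had more calls depended on the setting: with Rn45s left out of library sizes 2307 were higher and 2477 lower. With the mouse as a replicate block, 2468 were higher and 2256 lower, of which 2448 and 2209 were also called without it, and the block moved no count by over 1.5 times. Of 202 named genes 196 were called, 186 of these kept their call under every alternative run, and 0 called values turned direction. Of 912 list counts, 68 moved by over 1.5 times.

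The count of genotype differences (7) was 95 with DESeq2, 163 with no filter, 3 with the filter at 5 CPM, 4 without Rn45s, 1 with limma at either pseudocount, 3 without the 8 h library of mouse 5, 0 with the 12 libraries of 8 h and 4 h of both genotypes alone, and 0 to 184 leaving out single WT mice. Without a filter, 338 genes fell by 4 h and then rose, and 285 peaked, against 361 peaks with limma on log2(TPM + 0.1). Increases of at least 2-fold numbered 274 with the filter at 5 CPM and 240 with limma on log2(TPM + 1), and first called rises 67 and 65. The cause was not tested. With single mice left out, 274 to 484 genes fell and then rose, 356 to 454 rose and then fell, 258 to 575 peaked and 220 to 330 had a trough. With 2-fold steps the classes held 104 continued rises, 120 continued falls, 101 risen then lower, 69 fallen then higher, 35 peaks and 73 troughs. Classes could not be computed from the 6 WT libraries of 8 h and 4 h alone. Depth limits genes with few reads, such as Lag3 at 4 h with 22 counts and G0s2 at 8 h with 21.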
